A study of Mus musculus with 4 samples.

Results

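Cells make hydrogen sulfide from sulfur amino acids and remove it by oxidation in mitochondria, and the 9 genes described here cover that route and its continuation into sulfate use. They were Cbs, Cth and Mpst, whose enzymes can release sulfide or carry it as a persulfide, Sqor, Ethe1 and Tst, whose enzymes oxidise sulfide or pass its sulfur on, Suox, which encodes sulfite oxidase, and Papss1 and Papss2, whose enzymes turn sulfate into the activated donor PAPS. All 9 were represented, by 14 of the 45037 probe sets on the array and as 9 of 17097 genes named, counting every probe set whose only gene symbol was one of the 9. The group was chosen by measured values of this very comparison, since Sqor and Papss2 were already known to be among its largest decreases. The other 7 genes were added for their place in the pathway. Differences between the labels are therefore given for the 9 genes as a description, with no p-value, and where a count of called members is given it restates that choice and supports nothing.

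The arrays measured RNA of CD4+CD8+ double-positive thymocytes, a developing T cell stage with CD4 and CD8 on the same cell, obtained from C57BL/6 mice by cell sorting. There were 2 arrays labelled hCD2-iCre x Gfi1fl/fl, from mice in which a Cre recombinase driven by human CD2 sequences, active in T and B lineage cells, meets a floxed Gfi1 gene, and 2 arrays labelled WT. Gfi1 encodes a zinc-finger repressor of transcription in blood cells. The labels gave no age and did not say whether the WT mice carried the recombinase or whether replicates were separate animals. Any p-value below therefore measures only the spread between these samples, pooled by limma with that of other genes. Both labels are named below as labels because of the targeted gene itself. Its 1 named probe set read 11.47 and 11.32 on the Gfi1fl/fl-labelled arrays, against 10.17 and 10.08 on the WT-labelled arrays, on the log2 scale. This was 1.27 ± 0.14 (SE) higher under the Gfi1fl/fl label (limma, adjusted p = 0.00781; 0.0501 without WT replicate 2). Where this probe set lies relative to the floxed part is not given in the sources used here, and outside the deleted part it checks nothing.

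As background, SQOR sits in the inner mitochondrial membrane, takes electrons from sulfide and passes them to coenzyme Q, leaving the sulfur on a thiol as a persulfide. ETHE1 oxidises glutathione persulfide to sulfite, TST (rhodanese) moves persulfide sulfur to make thiosulfate or to use it, and SUOX, a molybdenum enzyme of the intermembrane space, oxidises sulfite to sulfate. PAPSS1 and PAPSS2 are each an ATP sulfurylase and an adenylylsulfate kinase in a single protein, and the PAPS they make is the sulfate donor of sulfotransferases.

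The promoters of Sqor, Papss2 and Suox are shown because these 3 genes had the largest differences among the 9. Whether the promoters have any part in those differences was not tested. The RefSeq table of build GRCm38.p6 held promoter windows for 7 of the 9 genes, in 12 windows of 300 bases. Cth and Tst had none. Capitals mark CCAAT, the box bound by the factor NF-Y, on either strand. The Sqor window is chr2:122771463-122771762, plus strand. Those of Papss2 are chr19:32595465-32595764 and chr19:32619755-32620054, plus strand, at separate annotated starts. That of Suox is chr10:128673869-128674168, minus strand.
Sqor: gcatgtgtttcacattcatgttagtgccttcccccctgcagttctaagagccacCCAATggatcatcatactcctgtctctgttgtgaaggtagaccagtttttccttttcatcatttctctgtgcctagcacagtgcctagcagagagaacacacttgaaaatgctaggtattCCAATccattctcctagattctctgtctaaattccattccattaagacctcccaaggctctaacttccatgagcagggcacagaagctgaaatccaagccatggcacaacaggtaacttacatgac
Papss2, upstream start: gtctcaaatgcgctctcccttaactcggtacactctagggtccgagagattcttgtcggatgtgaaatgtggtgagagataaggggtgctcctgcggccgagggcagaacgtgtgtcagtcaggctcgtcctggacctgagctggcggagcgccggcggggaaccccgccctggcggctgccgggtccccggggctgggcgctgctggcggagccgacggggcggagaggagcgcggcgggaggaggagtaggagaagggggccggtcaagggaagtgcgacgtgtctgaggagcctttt
Papss2, downstream start: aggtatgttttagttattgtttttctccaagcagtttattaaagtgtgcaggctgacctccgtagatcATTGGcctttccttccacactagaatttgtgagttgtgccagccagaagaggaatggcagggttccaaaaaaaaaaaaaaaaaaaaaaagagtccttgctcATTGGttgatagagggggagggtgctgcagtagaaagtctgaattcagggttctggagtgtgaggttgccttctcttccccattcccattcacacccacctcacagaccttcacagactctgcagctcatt
Suox: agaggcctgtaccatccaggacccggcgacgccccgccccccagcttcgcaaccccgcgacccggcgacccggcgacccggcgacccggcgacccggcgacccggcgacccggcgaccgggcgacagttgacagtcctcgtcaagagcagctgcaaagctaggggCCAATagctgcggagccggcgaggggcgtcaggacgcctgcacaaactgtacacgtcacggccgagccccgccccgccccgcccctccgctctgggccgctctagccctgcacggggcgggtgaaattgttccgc

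The windows differed in base composition. The Sqor window held 0 CpG dinucleotides at 45.0% G and C, and the downstream Papss2 window held 1 at 44.3%. The upstream Papss2 window held 27 at 66.3%, and the Suox window held 40 at 73.3%. Over all 32851 windows of the table the median was 7 CpG dinucleotides and 52.7% G and C. CCAAT was found at 2 places in the Sqor window, 2 in the downstream Papss2 window, 1 in the Suox window and 0 in the upstream Papss2 window. It occurs in 37.4% of all windows. Further motifs were searched on both strands: AATCAC, which holds the AATC core of Gfi1 sites, GTAAACA, a forkhead site, and TGACNNNGC, the antioxidant response element. None of them was in the 4 windows printed. They occur in 10.4%, 3.65% and 12.4% of all windows. Among the other members, AATCAC was found in 1 window of Papss1 and TGACNNNGC in 1 window of Mpst. The TATA box letters TATAAA were in 0 of the 12 windows of the members and occur in 13.6% of all windows. A match is only a string of letters, and these windows say nothing about binding.

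Of the 9 genes, Sqor and Papss2 were lower on the arrays labelled hCD2-iCre x Gfi1fl/fl, by 14-fold and 5.43-fold in signal by their brightest probe sets. Suox was lower by 1.68-fold, with replicates close together. Papss1, the second PAPS synthase gene, was within 1.14-fold, and Mpst and Ethe1, the other members read well above the array median, overlapped between the labels. Cth and Cbs were below the median of all probe sets on all 4 arrays (array medians 3.53 to 3.55), and Tst was near it. Sqor and Papss2 are 2 of the 29 genes, 0.170% of all 17097, that limma with Benjamini-Hochberg adjustment called lower. They were picked for this, so the count is no evidence about the 9 genes and nothing is read from it. The 9 differences had a median of -0.19 on the log2 scale, and 8 of 9 lay below 0. The median over all genes, -0.02, was itself below 0. The 8 include Sqor and Papss2, which were picked for being lower. They also include Mpst, Ethe1 and Cth, whose sign changed in at least 1 fit with an array left out. No shared decrease of the group is therefore read from this count or median.

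**Figure D1:**
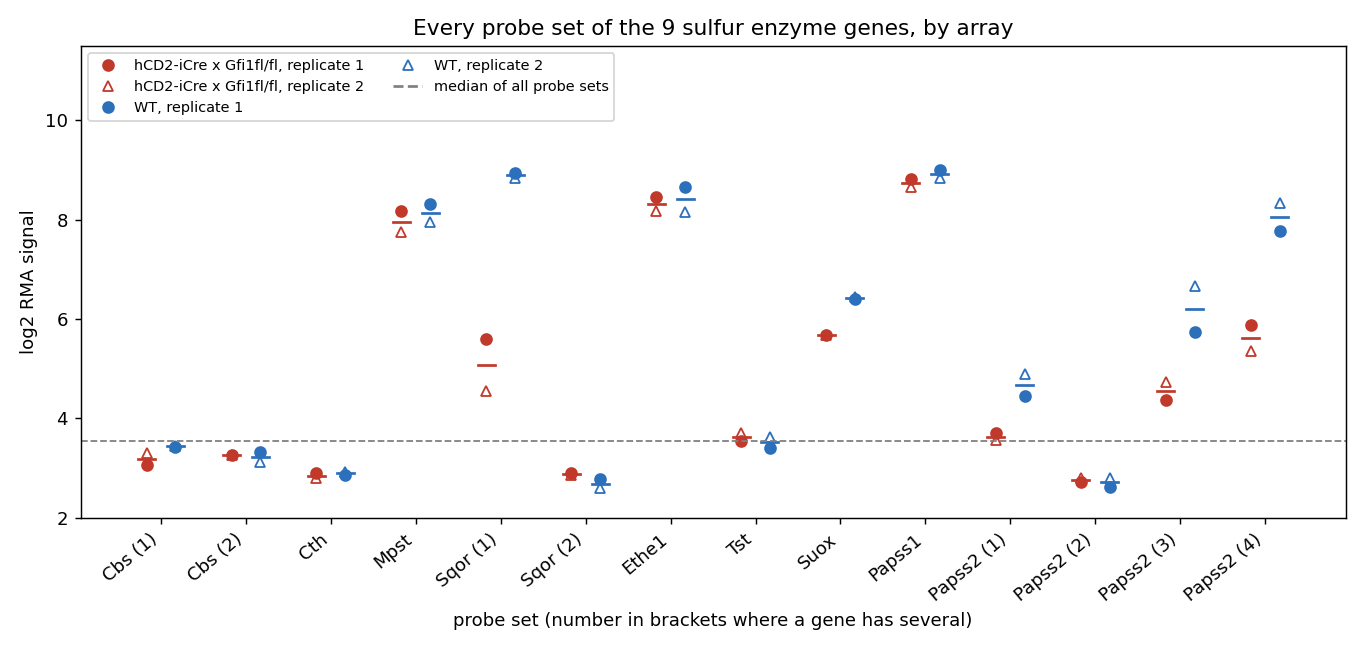
The log2 RMA signal of each of the 14 probe sets (y axis) on the 4 arrays, with the hCD2-iCre x Gfi1fl/fl arrays in red on the left of each pair and the WT arrays in blue on the right. Filled circles are replicate 1, open triangles replicate 2, short lines the mean of 2, and the dashed line the highest array median (3.55). Sqor (1) reads 5.61 and 4.56 against 8.94 and 8.85, while Cth stays below 3 throughout.

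Sulfide-producing enzymes come first. Mpst encodes the mercaptopyruvate sulfurtransferase, which takes sulfur from a breakdown product of cysteine. Its probe set read 8.17 and 7.75 on the Gfi1fl/fl-labelled arrays and 8.31 and 7.96 on the WT-labelled arrays. The labels overlapped, and replicate 1 was above replicate 2 under both. The difference was -0.17 ± 0.26 (SE), smaller than the gap between replicates (0.42 under the Gfi1fl/fl label and 0.35 under WT).

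Cbs encodes cystathionine beta-synthase, the entry to transsulfuration. Its brighter probe set read 3.06 and 3.30 on the Gfi1fl/fl-labelled arrays and 3.42 and 3.45 on the WT-labelled arrays. The other Cbs probe set read 3.26 and 3.26 against 3.33 and 3.12, so one separated the labels by 0.12 and the other did not separate them. Cth encodes cystathionine gamma-lyase, which completes transsulfuration to cysteine. It read 2.90 and 2.80 on the Gfi1fl/fl-labelled arrays and 2.87 and 2.92 on the WT-labelled arrays. At signals this low, below the array medians and without detection calls, a decrease of either gene was not detectable.

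Sqor had the second lowest difference of all 45037 probe sets. Its brighter probe set, 1420641_PM_a_at, read 5.61 and 4.56 on the Gfi1fl/fl-labelled arrays and 8.94 and 8.85 on the WT-labelled arrays. The highest value under the Gfi1fl/fl label lay 3.24 below the lowest under WT. The replicates under the Gfi1fl/fl label differed by 1.04 from each other, and those under WT by 0.09. The means were 5.08 ± 0.74 and 8.89 ± 0.06 (SD, n = 2 each), a difference of -3.81 ± 0.36 (SE). Both Gfi1fl/fl-labelled values stayed above the array medians. The other Sqor probe set, 1430998_PM_at, went the opposite way at the bottom of the scale, with 2.91 and 2.86 on the Gfi1fl/fl-labelled arrays and 2.77 and 2.59 on the WT-labelled arrays. It was below the array median on all 4 arrays, so the Sqor decrease rests on 1 probe set. In bulk RNA, fewer cells that express a gene and less RNA per cell cannot be told apart.

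The next step after SQOR did not show such a gap. Ethe1, the persulfide dioxygenase gene, read 8.47 and 8.17 on the Gfi1fl/fl-labelled arrays and 8.66 and 8.16 on the WT-labelled arrays. The labels overlapped, and the difference of -0.09 ± 0.25 (SE) was smaller than the gap between the WT-labelled replicates (0.50). Tst read 3.54 and 3.70 on the Gfi1fl/fl-labelled arrays and 3.41 and 3.63 on the WT-labelled arrays, also overlapping, at 0.10 ± 0.16 (SE). Tst and Mpst, which encode related sulfurtransferases and are adjacent protein-coding genes on mouse chromosome 15, were thus read at the array median and well above it. Their levels come from different probe sets and cannot be ranked.

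Suox had the tightest replicates among the members whose labels did not overlap. It read 5.67 and 5.68 on the Gfi1fl/fl-labelled arrays and 6.41 and 6.44 on the WT-labelled arrays. The replicates differed by 0.01 and 0.03, and the labels were separated by 0.72. The difference was -0.74 ± 0.23 (SE), where the SE is set mostly by the spread of other genes at this signal.

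The PAPS synthase genes differed from each other. Papss1 read 8.81 and 8.66 on the Gfi1fl/fl-labelled arrays and 9.004 and 8.85 on the WT-labelled arrays. The labels were separated by 0.03, less than the gap between replicates (0.15 and 0.16), with a difference of -0.19 ± 0.20 (SE).

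Papss2 had 4 probe sets, and 3 of them separated the labels. The brightest, 1434510_PM_at, read 5.87 and 5.36 on the Gfi1fl/fl-labelled arrays and 7.78 and 8.34 on the WT-labelled arrays. Its means were 5.62 ± 0.36 and 8.06 ± 0.40 (SD, n = 2 each), with a difference of -2.44 ± 0.31 (SE). The next, 1421989_PM_s_at, read 4.37 and 4.74 on the Gfi1fl/fl-labelled arrays and 5.75 and 6.66 on the WT-labelled arrays, a difference of -1.65 ± 0.35 (SE). The third, 1421987_PM_at, read 3.71 and 3.56 on the Gfi1fl/fl-labelled arrays and 4.45 and 4.89 on the WT-labelled arrays, a difference of -1.03 ± 0.22 (SE). On these 3, WT replicate 2 was above WT replicate 1. The last, 1421988_PM_at, read 2.73 and 2.79 on the Gfi1fl/fl-labelled arrays and 2.63 and 2.79 on the WT-labelled arrays, below the array median throughout. The size of the difference thus fell with the signal of the probe set, and the brightest came from a different sequence accession than the other 3.

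Both Gfi1fl/fl-labelled values lay below both WT-labelled values for 7 of the 14, against 17.9% of all probe sets. One, the dim Sqor probe set, lay the other way and 6 overlapped. Since this contrast chose the genes, these shares are given as a description.

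**Figure D2:**
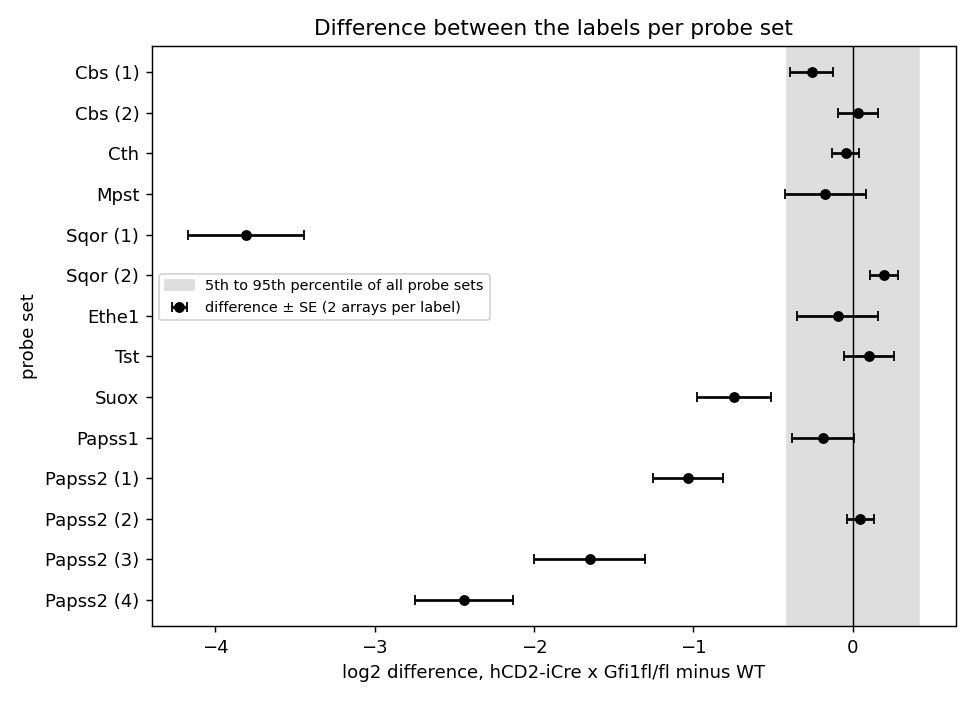
The log2 difference, hCD2-iCre x Gfi1fl/fl minus WT (x axis), of each member probe set (y axis), with bars of 1 SE from limma and 2 arrays per label. The grey band runs from -0.41 to 0.42, the 5th to 95th percentile of all 45037 probe sets, and the brightest probe set of Sqor (-3.81), that of Suox (-0.74) and 3 of Papss2 lie outside it.

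Leaving out each array in turn kept Sqor between -4.33 and -3.28, Papss2 between -2.72 and -2.16 and Suox between -0.76 and -0.73. Such a fit takes the spread from the other label alone. Mpst, Ethe1, Cth and Tst changed sign in at least 1 of these fits, so no direction can be given for them. Averaging all probe sets of a gene gave Papss2 -1.27 and Sqor -1.80, both smaller than by the brightest probe set (-2.44 and -3.81). Papss2 dropped out of the genes called under that averaging, without WT replicate 2 and without an intensity trend in the prior variance.

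**Figure D3:**
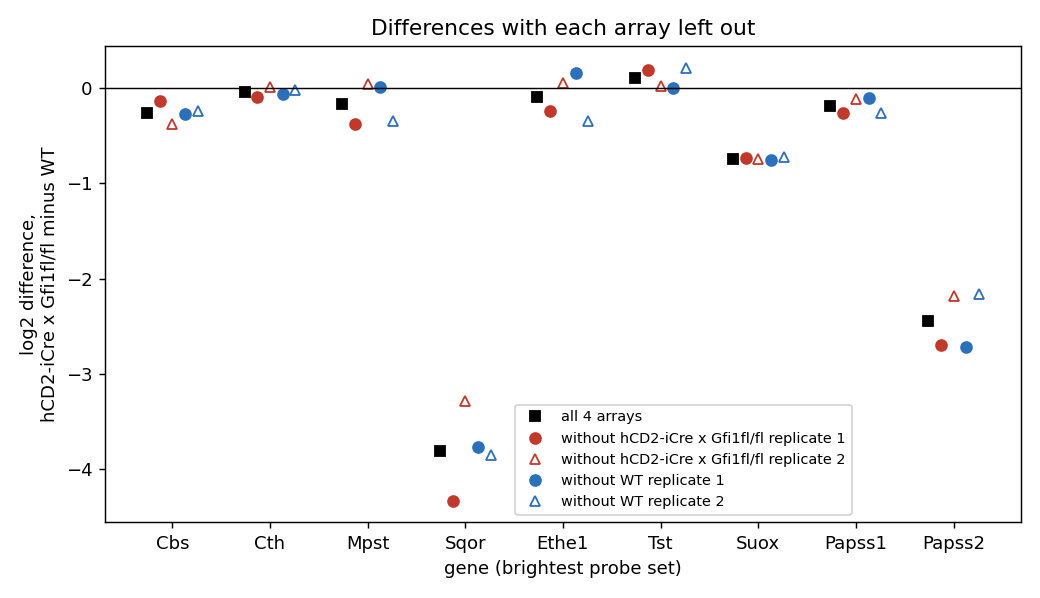
The log2 difference, hCD2-iCre x Gfi1fl/fl minus WT (y axis), of the brightest probe set of each of the 9 genes (x axis), with all 4 arrays (black squares) and with 1 array left out (red and blue symbols). Sqor stays below -3 and Papss2 below -2 in all 5 settings, while Mpst, Ethe1, Cth and Tst fall on both sides of 0.

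The arrays of one label also differed from each other in cell cycle and other marker genes. The mean of 25 cell cycle genes was 8.04 and 9.83 on the Gfi1fl/fl-labelled arrays and 8.83 and 9.36 on the WT-labelled arrays. Of their differences 24 lay below 0, with a median of -0.11 and 0 without overlap. Sqor was lower on the Gfi1fl/fl-labelled array with the higher mean. Within the WT label, Papss2 was higher on the array with the higher mean, and within the Gfi1fl/fl label it was lower there by its brightest probe set. Of 11 measured double-positive thymocyte markers, 0 were below the median on all arrays, and their mean was 11.06 and 10.87 on the Gfi1fl/fl-labelled arrays against 11.17 and 11.21 on the WT-labelled arrays. Over all 45037 probe sets, 8049 (17.9%) were lower and 7584 higher without overlap. Of the double-positive markers, 10 of 11 differences lay below 0, and 5 were lower and 1 higher without overlap. One, Dntt, the terminal deoxynucleotidyl transferase gene, was called lower, with 11.65 and 11.60 on the Gfi1fl/fl-labelled arrays and 12.23 and 12.39 on the WT-labelled arrays (-0.69 ± 0.11 SE; limma, adjusted p = 0.0413). Its adjusted p was 0.123 without WT replicate 1 and 0.266 without WT replicate 2, and ranged from 0.0118 to 0.266 over the alternatives. The summed linear signal of 13 thymic epithelial and stromal markers was 643 and 432 on the Gfi1fl/fl-labelled arrays, against 335 and 296 on the WT-labelled arrays, with 9 of the 13 below the median on all 4 arrays. Most of the gap between the labels in this sum was Epcam, which read 8.63 and 7.69 against 6.89 and 6.06 on the log2 scale. Of the 13 differences 10 lay above 0 and 3 below, with a median of 0.12, and 5 were higher and 2 lower without overlap. Of 7 B cell markers 3 differences lay below 0 and 4 above, with a median of 0.01, and 6 were below the array median throughout. The exception, Cd79b, read 7.41 and 6.28 against 8.26 and 7.88 on the log2 scale. It made up most of the summed linear signals, which were 222 and 128 against 359 and 282. For 6 erythroid markers they were 473 and 1449 against 216 and 1199, most of it Hba-a1, and higher on replicate 2 under both labels. For 12 myeloid markers they were 141 and 140 against 141 and 119. For 9 markers of NK cells, innate lymphoid cells and gamma-delta T cells they were 86.1 and 100.6 against 78.9 and 77.1, with 6 of 9 below the median throughout. Of these 9, 7 differences lay above 0 and 2 below, and 4 were higher and 2 lower without overlap. Of the same 9, 0 were called (limma; 3 at an unadjusted p under 0.05). The part of these in the Sqor and Papss2 differences was not tested.

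Genes next to Sqor, Papss2 and Suox, picked after the values were seen, give a local comparison. Bloc1s6, the protein-coding gene before Sqor, read 8.33 and 8.14 on the Gfi1fl/fl-labelled arrays and 8.18 and 8.48 on the WT-labelled arrays, overlapping. Minpp1, before Papss2, differed by -0.14 ± 0.18 (SE). Atad1, after Papss2, read 9.19 and 9.22 on the Gfi1fl/fl-labelled arrays and 9.20 and 9.21 on the WT-labelled arrays. Rab5b, after Suox, differed by 0.08 ± 0.27 (SE). On the other sides, Sema6d after Sqor and Ikzf4 before Suox had low signals and differed by 0.16 ± 0.14 and 0.26 ± 0.18 (SE). None of these 6 was called (limma, adjusted p of at least 0.872).

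Around the members, 7 lists of sulfur pathway genes were examined. Of 126 measured genes, 0 were called higher, 0 were called lower and 126 did not pass (limma, Benjamini-Hochberg over all genes). Of these, 9 had an unadjusted p under 0.05. With 2 arrays per label, not passing does not show that a gene was unchanged. Over all genes 1.11% were called in either direction. Differences lay below 0 for 80 of the 126, with a median of -0.07 against -0.02 over all genes. Marker lists from outside these pathways leaned both ways. Differences lay below 0 for 24 of 25 cell cycle genes and 10 of 11 double-positive markers. The count was 3 of 13 for thymic epithelial and stromal markers and 2 of 9 for NK, innate lymphoid and gamma-delta T cell markers. Counts below 0 are therefore not read as particular to the sulfur pathways. Leaving out 1 Gfi1fl/fl-labelled array, in fits of 1 array against 2, changed the size of some differences. The genes given next were picked because they were called in such a fit, which takes the spread from the WT label alone. Without Gfi1fl/fl-labelled replicate 1, Slc7a11 was at -2.07, Prodh at -1.64, Arsi at -1.47 and Tstd3 at -1.42. Without replicate 2, Arsi was at -1.56 and Hs6st1 at 1.20.

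Upstream of the sulfide producers, 0 of 23 measured genes of sulfur amino acid and glutathione metabolism passed in either direction, with a median of -0.06. The largest difference was that of Slc7a11, the cystine importer subunit. It read 5.90 and 4.92 on the Gfi1fl/fl-labelled arrays and 6.86 and 7.14 on the WT-labelled arrays, without overlap, a difference of -1.58 ± 0.36 (SE; limma, adjusted p = 0.142). The lower of the Gfi1fl/fl-labelled values was that of replicate 2, as for 6 of the 9 members by their brightest probe sets.

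Among thiol and persulfide carriers, 0 of 16 passed, 15 of 16 differences lay below 0 and the median was -0.16. Double-positive markers, outside these pathways, gave 10 of 11 with a median of -0.17, so no sulfur pathway trend is read from this count. Tstd3, which encodes a small protein with a rhodanese-like domain, read 4.56 and 3.94 on the Gfi1fl/fl-labelled arrays and 5.07 and 5.66 on the WT-labelled arrays, a difference of -1.11 ± 0.31 (SE; limma, adjusted p = 0.255). Among genes that make coenzyme Q or feed electrons into it as SQOR does, 0 of 18 passed and 14 lay below 0, with a median of -0.18. Prodh, the mitochondrial proline dehydrogenase gene, had the largest difference there. It read 9.27 and 7.65 on the Gfi1fl/fl-labelled arrays and 9.65 and 8.93 on the WT-labelled arrays, overlapping (-0.83 ± 0.50 SE; limma, adjusted p = 0.826).

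SUOX needs the molybdenum cofactor. Of 7 measured genes of its synthesis and of other molybdenum enzymes 0 passed, with a median of -0.01. Mocs1, which acts at the start of cofactor synthesis, read 3.33 and 3.31 on the Gfi1fl/fl-labelled arrays and 3.83 and 3.62 on the WT-labelled arrays (-0.40 ± 0.14 SE; limma, adjusted p = 0.443). These signals straddle the array medians.

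On the sulfate side, 0 of 10 genes of sulfate and PAPS transport and PAP removal passed, with a median of -0.03. Slc26a11, an anion exchanger gene of the sulfate carrier family, had the largest difference and it was upward, with 4.55 and 4.43 on the Gfi1fl/fl-labelled arrays and 3.59 and 3.79 on the WT-labelled arrays (0.80 ± 0.18 SE; limma, adjusted p = 0.142). Of 40 sulfotransferase genes, the users of PAPS, 0 passed, 19 lay below 0 and 21 above, and the median was 0.01. The mean signal of 31 of the 40 was below the array median. Hs6st1, a heparan sulfate sulfotransferase gene, read 9.44 and 9.15 on the Gfi1fl/fl-labelled arrays and 8.69 and 7.81 on the WT-labelled arrays (1.05 ± 0.31 SE; limma, adjusted p = 0.295). Of 12 genes of sulfatases, which remove sulfate esters, and their activating factor, 0 passed and the median was -0.11. Arsi, an arylsulfatase gene, read 6.17 and 6.26 on the Gfi1fl/fl-labelled arrays and 7.27 and 8.20 on the WT-labelled arrays (-1.52 ± 0.33 SE; limma, adjusted p = 0.129).

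**Figure D4:**
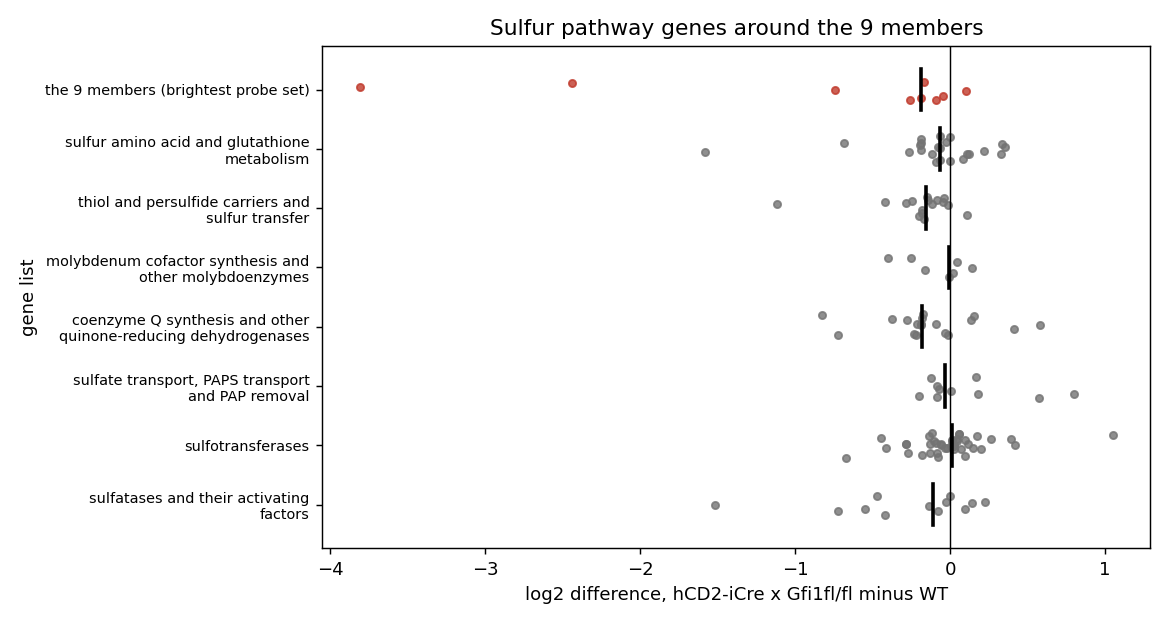
The log2 difference, hCD2-iCre x Gfi1fl/fl minus WT (x axis), of the 9 members by their brightest probe sets (red, top) and of each measured gene on 7 sulfur pathway lists (grey), with a black line at each list's median. Points are spread vertically at random within a list. List medians lie between -0.18 and 0.01, and Slc7a11 (-1.58) and Arsi (-1.52) are the lowest of the grey points.

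Genes near in pattern to Sqor and Papss2 were sought among all but the members and genes with clone or provisional names. The nearest over the 4 arrays were found by Euclidean distance after subtracting each gene's own mean. For Sqor they were P3h4 (distance 0.85), Cd44 (1.00), Insl5 (1.18), Fn3k (1.26) and Tdrd5 (1.37), where a flat gene would be 3.88 away. P3h4 read 4.37 and 4.10 on the Gfi1fl/fl-labelled arrays and 7.61 and 7.24 on the WT-labelled arrays. For Papss2 they were Fn3k (distance 0.37), Tdrd5 (0.41), Myzap (0.53), Abcb9 (0.58) and Acpp (0.70), where a flat gene would be 2.50 away. Fn3k, which encodes a kinase that acts on glycated proteins, read 4.70 and 3.74 on the Gfi1fl/fl-labelled arrays and 6.62 and 7.01 on the WT-labelled arrays. With 4 arrays these distances mostly reflect the size of the difference between the labels.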

How the data were processed

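The deposited values are log2 signals per probe set. RMA and Affymetrix Expression Console 1.1 made them, per the submitters' processing notes, and the scale was judged from their range (2.19 to 13.5) and near-equal quartiles. RNA was labelled by a 3' in vitro transcription kit, per the labels' protocols, and hybridised 1 sample per array. RMA compresses differences at the bottom of its range. Detection calls were not used here.

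Of 45037 probe sets, 28898 had 1 gene symbol in the platform annotation, 551 had several and 15588 were not listed. Where a gene had several, the brightest on average over the 4 arrays stood for it. Labels were compared with lmFit and eBayes (intensity trend) of limma 3.58.1 in R 4.3.3 across all 17097 genes, and separately all probe sets, two-sided, at a Benjamini-Hochberg adjusted p of 0.05. The SE is limma's moderated one. The procedure was tested on simulated data. With 2 arrays per label, their number limits the precision.

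Members, lists and motifs were chosen with earlier results of these data known. Of each list the called genes, at most 4, or else the 1 with the largest difference were named. The 5 nearest patterns to Sqor and Papss2 were also named, leaving out members and genes with clone or provisional names. Lists held 150 genes, 126 with a named probe set. Alternatives were a replicate block, other scalings, a dim filter, other priors, averaged probe sets and leaving out each array. Figures used matplotlib 3.10.9.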

Additional observations from a re-analysis of the deposited data

How the results depend on the processing

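With all 4 arrays limma called 190 genes, 161 higher and 29 lower under the Gfi1fl/fl label. Leaving out 1 array gave 103 to 475 genes, with 87 to 325 higher and 10 to 178 lower, and 168 to 368 probe sets against 345. These fits take the spread from 1 label. Without the intensity trend 18 genes were lower and 205 probe sets were called. The members called lower were 2, and 1 without the intensity trend or with averaged probe sets, and 1 to 2 with an array left out. The pathway genes called were 0 to 4 with an array left out. The cause was not tested. With the replicate number as a block (replicate block), 183 genes and 272 probe sets were called. Sqor and Papss2 were still among those genes, Papss2 only just under the adjusted p threshold of 0.05. The labels do not say that a number marks a shared animal or day. The correlation across 17097 genes of replicate 1 minus replicate 2 between the labels was 0.30, with only 2 pairs. Median centring, a second quantile normalization, a robust prior and leaving out the dimmest 30% of probe sets kept both calls. Cth was left out by that filter. Sqor and Papss2 were picked by this same contrast on the same 4 arrays, so keeping their calls supports nothing. Low signals limit Cbs, Cth, Tst and the second Sqor probe set.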
